A study of Homo sapiens with 6 samples.

Results

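The levels of 10 heat shock genes were examined in 67R cells, a lung adenocarcinoma line in which the metabolic enzyme BCAT1 was knocked down. The genes were the rows of the expression table named HSPA1A, HSPA1B, HSPA8, HSPH1, HSP90AA1, HSP90AB1, DNAJB1, HSPB1, BAG3 and HSPD1, which makes 10 of 60664 genes, and all 10 were high enough to be tested. 67R cells were derived from NCI-H1975, a human line with mutant EGFR, by growth in rising amounts of the EGFR inhibitor ASK120067, and every library came from these resistant cells. There were 3 libraries from cells given a negative control siRNA (siNC, n = 3) and 3 from cells given siRNA against BCAT1 (siBCAT1, n = 3). The study's methods list 2 siRNA sequences against BCAT1 and tie the plain name siBCAT1, as in the labels, to the second. The labels do not say whether the 3 libraries of a group came from separate cultures, and the methods speak of independent experiments only in general, so the p-values measure the spread between these libraries, which may be technical.

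Heat shock proteins are chaperones, which bind unfolded or partly folded proteins and help them to fold, to reach their compartment or to be degraded. Many of their genes are switched on by HSF1, a transcription factor that chaperones hold inactive until misfolded proteins draw them away. HSF1 binds as a trimer to heat shock elements, which are alternating runs of the unit GAA and its complement TTC. Cancer cells commonly express these genes at high levels, and mutant kinases such as EGFR are clients of HSP90.

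Heat shock elements were searched for in the promoters of the 10 genes, and upstream stretches that hold them are printed here because they are the letters that HSF1 is known to bind. RefSeq (GRCh38.p14) gave windows of 300 bases, from 250 before to 50 after a start, for all 10 genes, with more than 1 window for 4 of them. A pair of units was GAANNTTC or TTCNNGAA, and a longer element was GAANNTTCNNGAA or TTCNNGAANNTTC, which contains 2 overlapping pairs, and the 2 spellings cover both strands. Each line gives 30 bases, 5′ to 3′ on the strand of the gene, with the distance from the start, and capitals mark the units and the bases between them.
HSPD1 (chr2:197500061-197500090, minus strand, -250 to -221): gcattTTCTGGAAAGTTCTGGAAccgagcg
HSP90AA1 (chr14:102087104-102087133, minus strand, -89 to -60): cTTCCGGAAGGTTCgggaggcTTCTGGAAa
HSP90AB1 (chr6:44247770-44247799, plus strand, -173 to -144): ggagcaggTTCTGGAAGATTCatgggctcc
HSP90AB1 (chr6:44247823-44247852, plus strand, -120 to -91): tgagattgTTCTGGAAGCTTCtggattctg
HSPA8 (chr11:123062345-123062374, minus strand, -238 to -209): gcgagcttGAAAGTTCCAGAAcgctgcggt
HSPA8 (chr11:123062170-123062199, minus strand, -63 to -34): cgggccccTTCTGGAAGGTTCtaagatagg
HSPA1A (chr6:31815426-31815455, plus strand, -117 to -88): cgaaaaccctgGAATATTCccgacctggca
HSPA1B (chr6:31827622-31827651, plus strand, -116 to -87): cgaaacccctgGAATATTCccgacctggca
DNAJB1 (chr19:14518456-14518485, minus strand, -88 to -59): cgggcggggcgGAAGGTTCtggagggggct
DNAJB1 (chr19:14518426-14518455, minus strand, -58 to -29): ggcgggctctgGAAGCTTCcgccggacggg
HSPB1 (chr7:76302480-76302509, plus strand, -193 to -164): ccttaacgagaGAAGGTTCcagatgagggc
One window is shown for each gene, the one with the most pairs, and a further DNAJB1 pair that begins 2 bases after another of its starts is not shown.

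Only exact letters were counted, and units with a changed letter were not searched for. A pair of units was present in 8 of the 10 genes, against 16.2% of all 27305 genes with such a window. The 10 were picked as heat shock genes and HSF1 targets, so an excess of these elements lies in the choice. They also had 16 windows for 10 genes, against 35116 for 27305, and any window of a gene could count. The longer element of 3 alternating units was present in 4 of the 10, HSPD1, HSP90AA1, HSP90AB1 and HSPA8, against 0.608% of all genes. HSPD1 had the longest run, with 4 alternating units. The windows of BAG3 and HSPH1 held none of these letters, which says only that they are not in these windows. The TATA box (TATAAA, on the gene's strand) was found in HSPA1A and HSPA1B, 2 of the 10, against 8.99% of all genes, and the CCAAT box (CCAAT or ATTGG) in 5 of the 10, against 39.7%. By GENCODE 29 the HSPA1A, HSPA1B and HSPB1 stretches lie upstream of any gene, those of HSP90AB1 and DNAJB1 lie inside the gene body and outside exons, and those of HSP90AA1 and HSPA8 lie in an exon of another transcript of the gene. The HSPD1 stretch lies in exons of both HSPD1 and HSPE1, which are transcribed away from each other.

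Values are TPM, in which each gene is scaled by its length and each library to a common sum, so levels can be set side by side between genes. The table gives no read counts and the depth is unknown, so precision rests on the spread between 3 libraries. The library sums lay between 992512 and 995593 TPM, and between 23152 and 25043 genes were above 0. BCAT1, the targeted gene, was at 42.7, 42.2 and 29.8 TPM in siNC and at 8.78, 7.10 and 8.0 TPM in siBCAT1, a log2 fold change of -2.12 (SE 0.15, adjusted p = 0.000272 by limma). Of the markers checked, the keratins KRT7, KRT8, KRT18 and KRT19 were between 28.7 and 1347 TPM and EPCAM between 0.91 and 2.61 TPM, while the lung lineage genes NKX2-1 and NAPSA were at most at 0.33 TPM. Of 6 epithelial markers tested, EPCAM was higher in siBCAT1 with no overlap but did not pass (log2 fold change 0.56, SE 0.19, limma adjusted p = 0.0732). The other 5 were called lower in siBCAT1, where 10.4% of all genes were. The largest of these changes was in CDH1, the adhesion protein E-cadherin, whose mean fell from 19.7 ± 8.34 to 3.10 ± 1.95 TPM (log2 fold change -2.41, SE 0.45, limma adjusted p = 0.00881), followed by KRT19 at -1.41 (SE 0.12, limma adjusted p = 0.000418). Of 8 markers of other cell types, CD68 was called higher (33.3 to 54.9 TPM) and COL1A1 lower (15.8 to 9.41 TPM), and the other 6, PTPRC and PECAM1 among them, were under 1 TPM in every library. Their part in the results was not tested, and in bulk RNA fewer cells of a type cannot be told apart from less RNA per cell.

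In siBCAT1 cells TPM were higher for both cytosolic HSP90 genes, HSPD1, HSPB1 and HSPH1, and lower for BAG3. Of 15 alternative fits, 9 lost the call of HSP90AB1, 4 that of HSPH1 and 5 that of BAG3. The HSP70 genes HSPA8, HSPA1A and HSPA1B and their partner DNAJB1 were not called in the main fit, which used no replicate block. With the replicate number as a block, HSPA8 and HSPA1A were called higher (limma adjusted p = 0.0358 and 0.0252). By limma with Benjamini-Hochberg adjustment over 14286 genes (threshold 0.05), 5 of the 10 genes were higher in siBCAT1, namely HSPD1, HSP90AA1, HSPH1, HSPB1 and HSP90AB1, where 16.7% of all genes were called higher and 27.1% in either direction. A single gene, BAG3, was lower, where 10.4% of all genes were called lower, and 4 did not pass the test. The median log2 fold change of the 10 genes was 0.35, against 0.04 over all genes tested. The same 5 genes had non-overlapping groups with siBCAT1 higher, and BAG3 with siBCAT1 lower, against 26.1% and 18% of all genes.

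**Figure D1:**
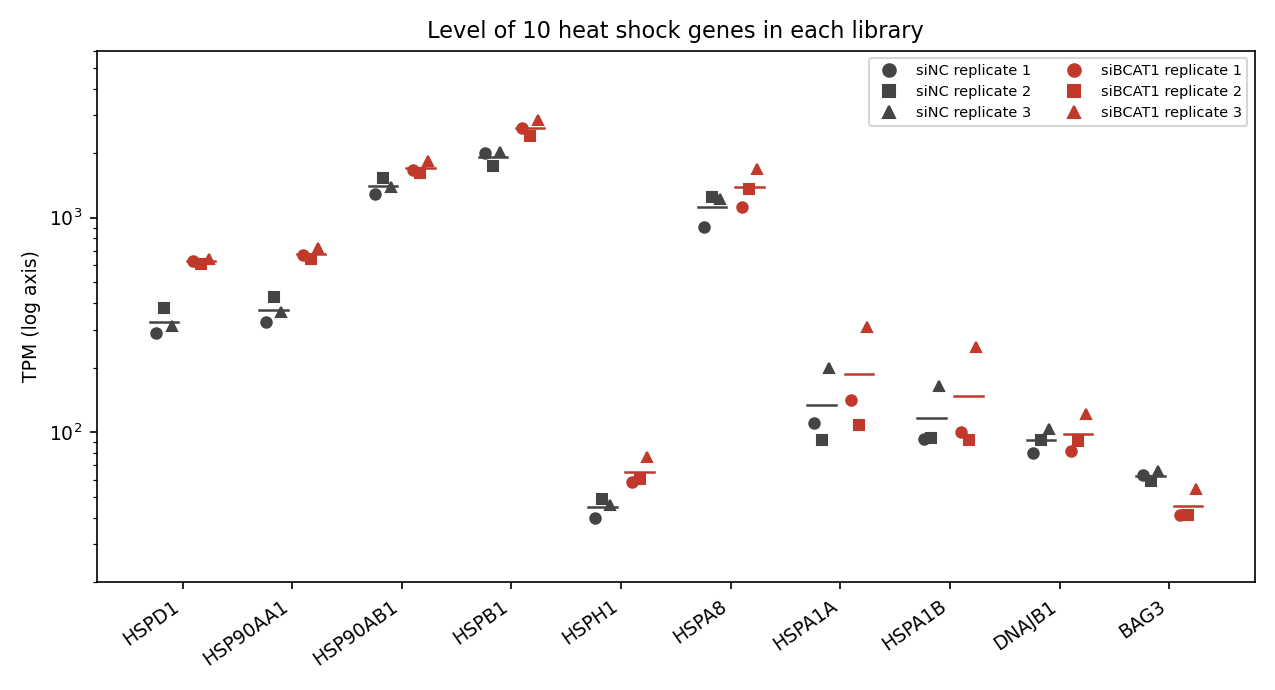
Level of each of the 10 heat shock genes in TPM (log axis), with a point for each library, its shape giving the replicate number, and a line at the mean of the 3 libraries of a group. The siBCAT1 points lie clear above the siNC points for HSPD1, HSP90AA1, HSP90AB1, HSPB1 and HSPH1 and clear below them for BAG3, and the triangles of replicate 3 lie highest for HSPA1A and HSPA1B in both groups.

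HSP90AA1 and HSP90AB1 encode the stress-inducible and the constitutive cytosolic HSP90, which hold kinases and steroid receptors in a folded state. HSP90AA1 (ENSG00000080824, chr14:102080738-102139699, minus strand, 11 exons) was at 327, 426 and 362 TPM in siNC and at 671, 639 and 723 TPM in siBCAT1. Its lowest siBCAT1 library was above its highest siNC library, and the mean rose 1.82-fold, from 371 ± 50.1 to 678 ± 42.0 TPM (SD, n = 3 per group). The log2 fold change was 0.87 (SE 0.10, limma adjusted p = 0.00122), higher than in 96.3% of the genes tested. HSP90AA1 overlaps WDR20 on the other strand, and whether the counting used strand is not stated in the sources used here.

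HSP90AB1 (ENSG00000096384, chr6:44246166-44253888, plus strand, 12 exons) started from a far higher level, with 1287, 1523 and 1392 TPM in siNC, and was at 1664, 1611 and 1844 TPM in siBCAT1. The groups did not overlap, and the mean went from 1401 ± 119 to 1706 ± 122 TPM (SD, n = 3 per group). Its log2 fold change was 0.29 (SE 0.07, limma adjusted p = 0.0293). This call was lost when single libraries were left out, with adjusted p = 0.0810 without siNC replicate 1, 0.0810 without siNC replicate 3, 0.0671 without siBCAT1 replicate 1 and 0.0826 without siBCAT1 replicate 3 (limma). It was lost as well with median-ratio scaling (limma adjusted p = 0.123), with a correction for gene length (0.114), with one for length and GC content (0.147) and with no filter on low genes (0.110). In all, 9 of the 15 alternatives ended it.

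The balance of the HSP90 pair was read within each library, where scaling cancels. The log2 ratio of HSP90AA1 to HSP90AB1 was -1.98, -1.84 and -1.94 in siNC and -1.31, -1.33 and -1.35 in siBCAT1. All 3 siBCAT1 libraries were above all 3 siNC libraries, by 0.59 on average (-1.92 ± 0.07 and -1.33 ± 0.02, SD, n = 3 per group). The exact two-sided permutation p was 0.1, the smallest that 3 against 3 can give, and 0.167 after Benjamini-Hochberg adjustment over the 5 ratios computed, so a ratio could not be called by this test whatever its size. The 2 transcripts had no stretch of 100 bases in common, so reads of that length could be told apart.

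HSPD1 encodes HSP60, the chamber-forming chaperonin of the mitochondrial matrix, and HSPE1 encodes HSP10, the lid of that chamber. HSPD1 (ENSG00000144381, chr2:197486581-197516737, minus strand, 12 exons) was at 290, 379 and 314 TPM in siNC and at 627, 610 and 644 TPM in siBCAT1. The siBCAT1 libraries lay close together and all well above siNC, with means of 328 ± 45.6 and 627 ± 17.02 TPM (SD, n = 3 per group). Its 1.91-fold change of means was the largest of the 10 genes, and its log2 fold change was 0.94 (SE 0.09, limma adjusted p = 0.000828). The table lists 18 HSPD1 pseudogenes, which summed to at most 0.585% of the HSPD1 value in any library.

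HSPE1, which overlaps HSPD1 on the other strand and is not among the 10 genes, had a smaller log2 fold change. It was at 551, 667 and 571 TPM in siNC and at 717, 715 and 778 TPM in siBCAT1, a log2 fold change of 0.31 (SE 0.08, limma adjusted p = 0.0256). The HSPE1 call was lost without any one of 5 of the 6 libraries, with adjusted p = 0.0769 without siNC replicate 1, 0.0828 without siNC replicate 3, 0.0600 without siBCAT1 replicate 1, 0.0579 without siBCAT1 replicate 2 and 0.0809 without siBCAT1 replicate 3 (limma). It was lost as well with no filter on low genes (limma adjusted p = 0.0856), with median-ratio scaling (0.0913) and with a correction for gene length (0.0787) or for length and GC content (0.117). In all, 10 of the 15 alternatives ended the HSPE1 call. In each library HSPD1 was below HSPE1, with log2 ratios of -0.92, -0.82 and -0.86 in siNC and -0.19, -0.23 and -0.27 in siBCAT1. The ratio was 0.64 higher in siBCAT1 with no overlap (exact permutation p = 0.1, the smallest possible, adjusted p = 0.167).

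HSPB1 encodes HSP27, a small heat shock protein that holds unfolded proteins without using ATP. HSPB1 (ENSG00000106211, chr7:76302544-76304295, plus strand, 3 exons) was the most abundant of the 10, at 2012, 1745 and 2013 TPM in siNC and at 2610, 2403 and 2851 TPM in siBCAT1. The groups did not overlap, and the mean went from 1923 ± 155 to 2622 ± 224 TPM (SD, n = 3 per group), which is 1.36-fold. On the log2 scale the change was 0.45 (SE 0.08, limma adjusted p = 0.00694). HSPB1, HSP90AA1 and HSPD1 were called under all 15 alternatives tried.

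HSPH1 encodes HSP110, which removes ADP from HSP70 and with it breaks up aggregates. HSPH1 (ENSG00000120694, chr13:31134974-31162388, minus strand, 18 exons) was the lowest of the 10 in siNC, at 39.8, 49.0 and 45.7 TPM, and was at 58.8, 60.5 and 77.1 TPM in siBCAT1. All siBCAT1 libraries were above all siNC libraries, with means of 44.8 ± 4.65 and 65.4 ± 10.1 TPM (SD, n = 3 per group). Its log2 fold change was 0.53 (SE 0.12, limma adjusted p = 0.0197). The call was lost without siNC replicate 1 (limma adjusted p = 0.0625) and without siNC replicate 3 (0.0511), and also with no filter on low genes (0.0615) and with a correction for length and GC content (0.0575).

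The HSP70 genes did not pass this test. HSPA8, the constitutive cytosolic HSP70 known as HSC70 (ENSG00000109971, chr11:123057489-123063230, minus strand, 9 exons), was at 903, 1255 and 1221 TPM in siNC and at 1121, 1358 and 1694 TPM in siBCAT1. The groups overlapped, since siBCAT1 replicate 1 was below 2 siNC libraries. The log2 fold change of HSPA8 was 0.30 with a 95% interval of -0.11 to 0.71 (limma adjusted p = 0.246), which reaches past the value of HSPH1. HSPA8 was called higher with the replicate number as a block (limma adjusted p = 0.0358).

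HSPA1A and HSPA1B encode the stress-inducible HSP70 from neighbouring genes of a single exon each on chromosome 6. HSPA1A (ENSG00000204389, chr6:31815464-31817946, plus strand) was at 111, 91.5 and 199 TPM in siNC and at 141, 108 and 310 TPM in siBCAT1. In both groups replicate 3 was far above the others, and the coefficient of variation was 42.8% in siNC and 58.0% in siBCAT1, against 13.9% and 2.71% for HSPD1. The log2 fold change of HSPA1A was 0.41 with a 95% interval of -0.58 to 1.39 (limma adjusted p = 0.510), and it was -0.03 without siBCAT1 replicate 3. That last fit kept siNC replicate 3, the highest siNC library. Between same-numbered libraries HSPA1A was higher in siBCAT1 by 0.35, 0.24 and 0.64 on the log2 scale. HSPA1A was called higher with the replicate number as a block (limma adjusted p = 0.0252).

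HSPA1B (ENSG00000204388, chr6:31827735-31830255, plus strand) followed the same pattern over libraries, at 92.6, 93.9 and 164 TPM in siNC and at 100.02, 92.5 and 248 TPM in siBCAT1. Its log2 fold change was 0.23 with a 95% interval of -0.70 to 1.15 (limma adjusted p = 0.707), and it was -0.23 without siBCAT1 replicate 3. Here too siNC replicate 3, the highest siNC library, was kept, and same-numbered libraries differed by 0.11, -0.02 and 0.60. The split between the pair is uncertain, because 69.9% of the 100-base stretches of the HSPA1A transcript occur letter for letter in HSPA1B, and reads from them could be given to either gene. The log2 ratio of their sum to HSPA8 was -2.22 ± 0.51 in siNC and -2.19 ± 0.58 in siBCAT1 (SD, n = 3 per group, exact permutation p = 0.9, adjusted p = 0.900), and that of HSPA1A to HSPA1B differed by 0.18 (exact permutation p = 0.3, adjusted p = 0.375).

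DNAJB1, or HSP40, hands unfolded proteins to HSP70 and starts its ATP cycle. DNAJB1 (ENSG00000132002, chr19:14514770-14529770, minus strand, 3 exons) was at 80.1, 92.4 and 104 TPM in siNC and at 81.3, 90.7 and 122 TPM in siBCAT1, and it overlaps TECR on the other strand. The groups overlapped throughout, with a log2 fold change of 0.08 and a 95% interval of -0.30 to 0.45 (limma adjusted p = 0.762). DNAJB1 was -0.09 without siBCAT1 replicate 3 and -0.02 without siNC replicate 1 on the same scale. Both of these fits kept siNC replicate 3, the highest siNC library. Between same-numbered libraries DNAJB1 differed by 0.02, -0.03 and 0.23. Relative to HSPA8 its groups did not overlap, with log2 ratios of -3.50, -3.76 and -3.56 in siNC and -3.78, -3.91 and -3.80 in siBCAT1 (difference -0.22, exact permutation p = 0.1, the smallest possible, adjusted p = 0.167).

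BAG3 is a co-chaperone that releases substrates from HSP70 and links it to small heat shock proteins and to autophagy. BAG3 (ENSG00000151929, chr10:119651370-119677819, plus strand, 4 exons) was at 63.1, 59.3 and 65.6 TPM in siNC and at 41.0, 40.9 and 54.3 TPM in siBCAT1, and it was the only one of the 10 with a negative log2 fold change. The groups did not overlap, and the mean fell from 62.7 ± 3.18 to 45.4 ± 7.72 TPM (SD, n = 3 per group). On the log2 scale BAG3 changed by -0.47 (SE 0.12, limma adjusted p = 0.0255). The call was lost without siNC replicate 1 (limma adjusted p = 0.0724), siNC replicate 3 (0.0792), siBCAT1 replicate 1 (0.0829) and siBCAT1 replicate 2 (0.0821), and with no filter on low genes (0.0736).

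**Figure D2:**
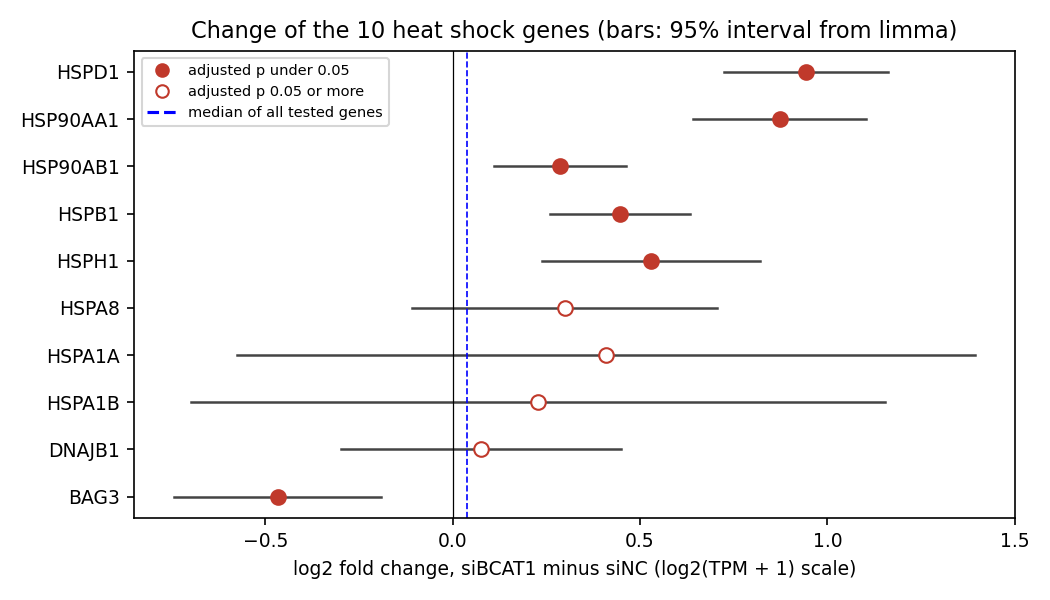
Log2 fold change of siBCAT1 over siNC on the log2(TPM + 1) scale for the 10 genes, with the 95% interval from limma, filled points for adjusted p under 0.05 and a dashed line at the median of all genes tested (0.04). HSPD1 (0.94) and HSP90AA1 (0.87) stand highest with narrow intervals, BAG3 (-0.47) is the only one below 0, and the intervals of HSPA1A and HSPA1B are the widest.

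The libraries differed in one further way that touches these genes. Replicate 3 was the highest library of its group in both siNC and siBCAT1 for 5 of the 10 genes, HSPA1A, HSPA1B, DNAJB1, HSPB1 and BAG3, and for 8.23% of all genes tested, a pattern looked for after the values were seen. For HSPA1A, siBCAT1 replicate 3 was at 310 TPM and the other 2 libraries at 141 and 108 TPM. siBCAT1 replicate 3 also had the fewest genes above 0 (23152) and the lowest share of TPM from mitochondrial genes (9.33%, against up to 10.4% in siNC replicate 1). Their part in the results was not tested.

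Summed over the 10 genes, the RNA took 0.523%, 0.574% and 0.592% of all TPM in siNC and 0.715%, 0.705% and 0.862% in siBCAT1. Every siBCAT1 library was above every siNC library, and the mean share went from 0.563% ± 0.0358 to 0.760% ± 0.0882 (SD, n = 3 per group), 1.35-fold (exact permutation p = 0.1, the smallest that 3 against 3 can give). Leaving out each library in turn gave folds of 1.26 to 1.40. HSPB1, HSP90AB1 and HSPA8 made up most of this sum, and the other 7 genes together took 0.116% ± 0.0132 in siNC and 0.186% ± 0.0293 in siBCAT1, 1.61-fold (exact permutation p = 0.1).

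HSF1 itself did not pass the test. It was at 62.6, 57.9 and 62.0 TPM in siNC and at 57.3, 61.7 and 61.4 TPM in siBCAT1, with a log2 fold change of -0.02 and a 95% interval of -0.17 to 0.14 (limma adjusted p = 0.879), an interval that leaves room for small changes either way, and RNA level says nothing of HSF1 activity. HSF2, a relative that can join HSF1 at the same elements, was at 12.3, 12.97 and 10.2 TPM in siNC and at 19.9, 15.0 and 13.8 TPM in siBCAT1. The HSF2 groups did not overlap, but the test was not passed (log2 fold change 0.42, SE 0.15, limma adjusted p = 0.0847). Of the 4 genes tested among the heat shock factors and their binding protein HSBP1, 0 passed by limma, and 1, HSF2, had an unadjusted p under 0.05.

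Of the other chaperone, co-chaperone and HSF1 target genes, 72 of 81 were high enough to test, and 29 were called higher and 5 lower, where the background was 16.7% and 10.4%. Their median change was 0.21 on the log2 scale. The 34 calls kept their direction under all 15 alternatives, and 21 of those higher and 2 of those lower stayed called in each of them.

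Among the co-chaperones and paralogs of HSP90, 9 of 14 were higher and 0 lower, against 16.7% and 10.4% of all genes. The median change of the list was 0.36 on the log2 scale. The change was largest for FKBP5, an immunophilin of steroid receptor complexes, which went from 11.2 to 24.7 TPM with a log2 fold change of 1.08 (SE 0.12, limma adjusted p = 0.00107). NUDC, a dynein-linked co-chaperone, rose by 1.00 (SE 0.08, limma adjusted p = 0.000417). AHSA1, which speeds up the HSP90 ATPase, was at 761, 786 and 839 TPM in siNC and at 1472, 1423 and 1590 TPM in siBCAT1, and it rose by 0.91 (SE 0.06, limma adjusted p = 0.000198). UNC45A, a myosin chaperone, FKBP4, a partner of steroid receptors, and CDC37, the adaptor for kinases, rose by 0.81, 0.77 and 0.39 in the same fit. These 6 genes were called under all 15 alternatives. Of the other calls in this list, STIP1 held under only 3 of them and TRAP1 under 8.

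The co-chaperones of HSP70 had 4 of 10 genes higher and 1 lower, against 16.7% and 10.4% of all genes. The 1 lower call is near the background. The median change of the list was 0.10 on the log2 scale. SIL1, a nucleotide exchange factor of the endoplasmic reticulum, rose by 0.88 (limma adjusted p = 0.000365), and ST13, which stabilises the ADP form of HSP70, rose by 0.70 (limma adjusted p = 0.000286). GRPEL1, the mitochondrial exchange factor, rose by 0.42, and BAG2, a relative of BAG3, rose by 0.47 where BAG3 fell. STUB1, the ubiquitin ligase CHIP that marks chaperone clients for degradation, fell from 170 to 143 TPM, a log2 fold change of -0.25 (SE 0.05, limma adjusted p = 0.00939).

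Among J-domain proteins, which steer HSP70 to its clients, 6 of 16 were higher and 2 lower, with a median of 0.21. Of all genes, 16.7% were higher and 10.4% lower, so the lower calls are near the background. DNAJA4, DNAJA2 and DNAJA1, cytosolic partners of HSP70, rose by 0.86, 0.62 and 0.51 (limma adjusted p = 0.00506, 0.00145 and 0.0125). DNAJA1 is itself a known HSF1 target and was called under all 15 alternatives. Of the other higher calls, DNAJB11 held under all 15, DNAJA3 under 11 and DNAJC7 under only 4. DNAJB2 and DNAJB9 were lower, by -0.32 and -0.49, but each lost its call without any one of siNC replicates 1 and 3 and siBCAT1 replicates 1 and 2, with limma adjusted p up to 0.121 and 0.0848.

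Of the other HSP70 and HSP110 proteins, 5 of 9 tested were higher and 0 lower, against 16.7% and 10.4% of all genes, with a median of 0.32. The 5 were HYOU1, HSPA5, HSPA13, HSPA9 and HSPA4. The calls of HSPA9 and HSPA4 held under only 5 and 6 of the 15 alternatives. HSPA6, a strictly inducible HSP70, and HSPA1L, found mainly in testis, stayed under 1 TPM in all 6 libraries and were not tested. Of the small heat shock proteins, HSPB6 fell from 57.2 to 36.5 TPM (log2 fold change -0.63, limma adjusted p = 0.00375) and HSPB8, the partner of BAG3, was at 27.2 and 35.3 TPM without passing (0.37, limma adjusted p = 0.122), while CRYAB was under 1 TPM.

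The chaperonins had 3 of 9 genes higher and 0 lower, against 16.7% and 10.4% of all genes, and a median of -0.0002. CCT5 and CCT6A, subunits of the cytosolic ring that folds actin and tubulin, rose by 0.80 (limma adjusted p = 0.000732) and 0.47 (limma adjusted p = 0.0128), and HSPE1 was the third. The other CCT subunits did not pass the test, and their log2 fold changes lay between -0.11 and 0.16.

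Of 18 further HSF1 targets tested, which share members with the lists above, 7 were higher and 1 lower, with a median of 0.25. Of all genes, 16.7% were higher and 10.4% lower. SERPINH1, the collagen chaperone HSP47, rose from 914 to 1242 TPM (log2 fold change 0.44, limma adjusted p = 0.00245), while the polyubiquitin gene UBB was at 2027 and 2056 TPM (0.02, limma adjusted p = 0.757). JMJD6 was lower by -0.26 (limma adjusted p = 0.0256), a call lost without any one of siNC replicates 1 and 3 and siBCAT1 replicates 1 and 2 (limma adjusted p up to 0.0850).

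The promoter words can be set beside the changes as a description. The 4 genes with an element of 3 units had log2 fold changes of 0.94 (HSPD1), 0.87 (HSP90AA1), 0.30 (HSPA8) and 0.29 (HSP90AB1). HSPH1 and BAG3, whose windows had no exact pair, were at 0.53 and -0.47. The 4 genes with an exact pair but no exact longer element ran from 0.08 (DNAJB1) to 0.45 (HSPB1). Elements with imperfect units may be present in any of these windows. The order of the 10 genes is given as a description, since several neighbours in it, such as HSP90AB1 and HSPA8, differ by less than their standard errors.

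**Figure D3:**
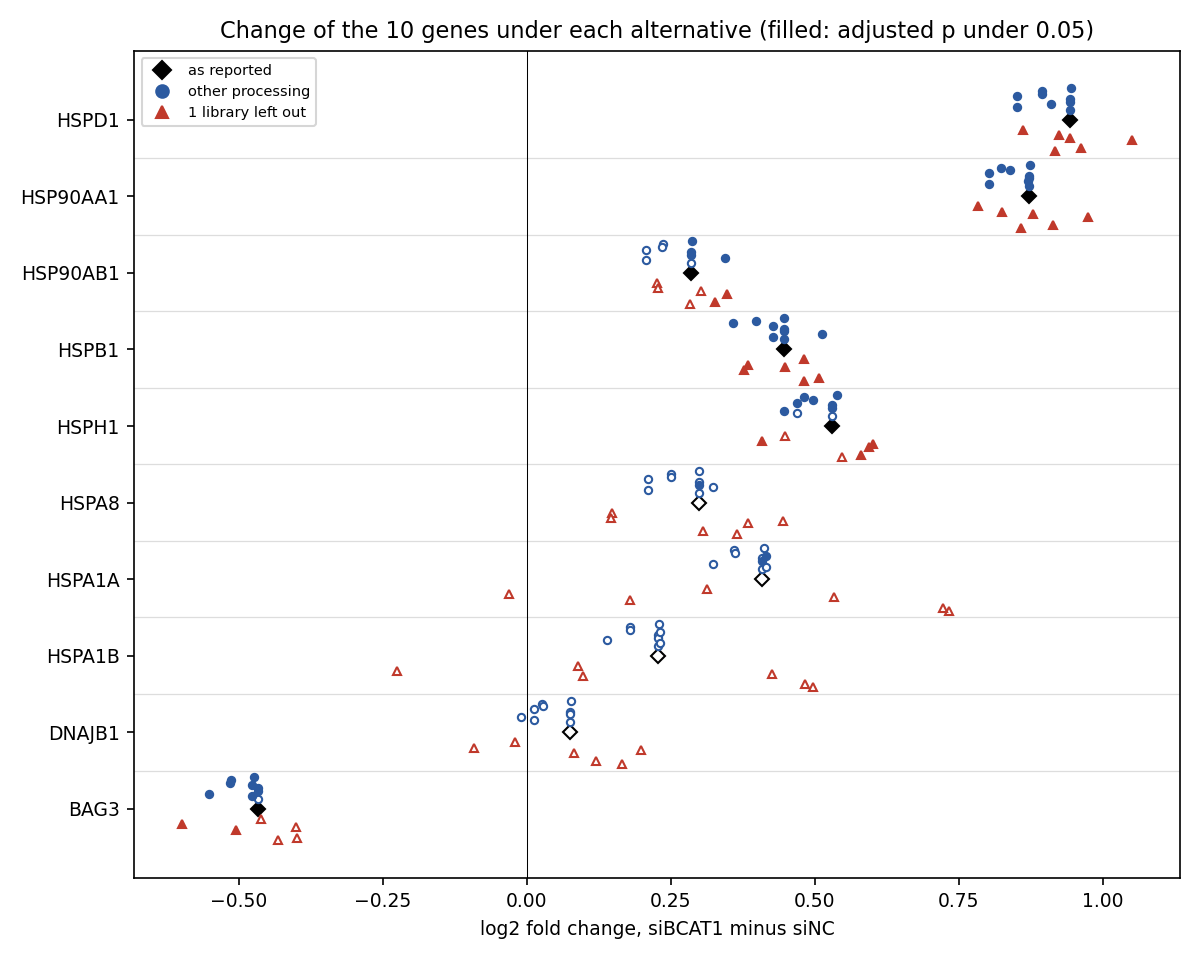
Log2 fold change of siBCAT1 over siNC for the 10 genes as reported (diamonds), under other processing (circles) and with 1 library left out (triangles), filled where the adjusted p was under 0.05. HSPD1, HSP90AA1 and HSPB1 are filled throughout, HSP90AB1, HSPH1 and BAG3 lose the call in part, and HSPA1A, HSPA1B and DNAJB1 cross 0 when a library is left out.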

How the data were processed

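Expression in 6 RNA-seq libraries (67R cells, 3 siNC and 3 siBCAT1) was used, grouped by the genotype and number in their labels. Per the labels and the study's methods, total RNA was extracted with TRIzol, libraries were made with a stranded mRNA kit, reads were cleaned with fastp, mapped with HISAT2 to GRCh38 and assembled with StringTie. Versions, annotation and use of strand in counting are not given in the sources used here. The authors deposited TPM values rounded to 2 decimals, one per gene and library. Column sums show the unit. StringTie estimates share reads between transcripts, so near-identical genes are uncertain. TPM are relative, so a gain in some genes lowers the rest.

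The fit used log2(TPM + 1) and the 14286 of 60664 genes whose mean reached 1 TPM, with limma 3.58.1 under R 4.3.3 (eBayes with trend, two-sided, Benjamini-Hochberg, threshold 0.05). Fold changes are on that scale, which understates low genes. The code was tested on simulated data. Ratios and shares were tested by exact permutation over libraries (scipy 1.17.1). Word searches used RefSeq promoters, and overlaps and exons came from GENCODE 29. Proteins were not analysed here.

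The 10 genes and all lists were chosen with earlier results of these data known. Named from the other lists were genes past the threshold or up to 4 with the largest change, besides HSF1, HSF2 and HSPE1. UBB, HSPA6, HSPA1L, CRYAB and the marker genes CDH1 and KRT19 were named outside that rule, after their values were seen. Alternatives were a pseudocount of 0.1, a minimum of 5 TPM, no filter, median-ratio scaling, quantile normalization, loess for gene length, the replicate number as a block, each library left out in turn and, chosen after seeing the data, loess for length and GC content with and without the block.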

Additional observations from a re-analysis of the deposited data

How the results depend on the processing

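HSPD1 (log2 fold change 0.85 to 1.05), HSP90AA1 (0.78 to 0.97) and HSPB1 (0.36 to 0.51) kept direction and call under all 15 alternatives, as did BCAT1. The number of the 10 genes called higher was 3 with no filter, 3 with loess for length and GC content, and 3 to 5 with 1 library left out, and the number called lower was 0 with no filter and 0 to 1 with 1 library left out. Over all genes, 2382 were called higher and 1483 lower, 960 were called lower with no filter, and leaving out 1 library gave 1501 to 2317 higher and 859 to 1466 lower. The higher and lower counts lay closer together with median-ratio scaling (1957 and 1802), quantile normalization (2042 and 1865) and loess for gene length (2084 and 1836). The background of 16.7% and 10.4% thus depends on the scaling. Of the related genes, 5 were called lower, against 3 with no filter, 8 with median-ratio scaling, 9 with quantile normalization, 9 with loess for length and GC content with the block, and 2 to 5 with 1 library left out. With 1 library left out, HSPA1A ranged from -0.031 to 0.73, HSPA1B from -0.23 to 0.50 and DNAJB1 from -0.092 to 0.20, each lowest without siBCAT1 replicate 3, and HSF1 from -0.052 to 0.017. Leaving out siBCAT1 replicate 3 kept siNC replicate 3, the highest siNC library for HSPA1A, HSPA1B and DNAJB1. DNAJB1 was also -0.021 without siNC replicate 1 and -0.010 with quantile normalization. HSF1 was 0.0021 with loess for length and GC content, with and without the block, and 0.0043 without siNC replicate 1. The log2 ratio of HSPA1A plus HSPA1B to HSPA8 ranged from -0.27 to 0.31 with 1 library left out, with -0.24 without siNC replicate 2 and -0.27 without siBCAT1 replicate 3. The cause was not tested.

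Same-numbered libraries of the groups deviated together with correlations of 0.084, 0.10 and 0.12 across genes, not all above 0.1, so the numbers were not taken as pairs, although every library correlated best with its own number. Correlations between different numbers were all below 0, from -0.081 to -0.013. Deviations from a group mean sum to 0, so positive same-number values push the others below 0 on average. The missing calls of HSPA8 and HSPA1A depend on not taking the numbers as pairs. With the replicate number as a block, 2773 genes (19.4%) were called higher and 1795 (12.6%) lower, and 7 of the 10 genes were higher, HSPA1A (limma adjusted p = 0.0252) and HSPA8 (0.0358) having been added. HSF2 (0.0423) and HSPB8 (0.0154) also passed with the block, and so did HSPA1A with the block and loess for length and GC content (0.040). The depth is unknown, so no counting error can be given, and 3 libraries a group limit every statement. A missing call, as for HSPA1B, does not show that a gene did not change.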

Other observations

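Chaperones of the endoplasmic reticulum, which fold secreted and membrane proteins, had more calls higher than lower. The list overlaps those described above, since HYOU1, HSPA5, HSP90B1, DNAJB11 and DNAJB9, which are among its calls, were counted there as well. Of 14 genes tested, 8 were called higher and 2 lower, and their median change was 0.37 on the log2 scale (all genes tested, 0.04, with 16.7% called higher and 10.4% lower). HYOU1, the HSP110 of this compartment, was at 164, 156 and 160 TPM in siNC and at 271, 226 and 253 TPM in siBCAT1, and rose by 0.64 (SE 0.07, limma adjusted p = 0.00141). HSPA5, the HSP70 known as BiP, rose by 0.52 from 388 to 560 TPM, and HSP90B1, the HSP90 known as GRP94, rose by 0.44 from 378 to 515 TPM (limma adjusted p = 0.00284 and 0.00248). MANF, a secreted protein that binds BiP, went the other way, from 72.8 to 49.9 TPM (log2 fold change -0.54, SE 0.10, limma adjusted p = 0.00890). All 4 were called under all 15 alternatives.

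Over the genome, 44 genes tested had an element of 3 alternating GAA units in a RefSeq promoter window, a group chosen after the values were seen. Without the 4 among the heat shock genes, 11 of the remaining 40 were called higher and 3 lower, where 16.7% and 10.4% of all genes were, and their median change was 0.05 on the log2 scale, beside 0.04 for all genes tested.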
